A study of Mus musculus with 2 samples.

Results

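Mir221 and Mir222 are neighbouring microRNA genes on mouse chromosome X. They were examined here in heart microRNA libraries as 2 of the 2202 annotated genes in the deposited count tables, chosen by gene name in GENCODE M21. The samples were heart tissue of female mice of the hybrid strain B6CASTF1/J at 14 days of age, from which RNA of under 30 bases was sequenced. There was 1 group with 2 biological replicates and no other genotype, treatment or age. The biobank note of replicate 1 speaks of 3 females, that of replicate 2 of a single animal, and pooling is not stated. Both replicates cite 1 shared donor entry, and 1 further label gives the age unit as months. Unless a spread between replicates is named, the p-values below weigh the difference between these samples against counting error alone. That difference may be technical.

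MicroRNAs are short RNAs cut from a hairpin precursor that repress messenger RNAs by pairing, mainly through the seed, bases 2 to 8 of the mature strand. The mature strands from the 3′ side of the Mir221 and Mir222 hairpins carry the same seed and form 1 family. Known targets include the mRNAs of KIT, the receptor for stem cell factor, and of the cell cycle inhibitor p27. In cultured human endothelial cells the family is known to restrain the response to stem cell factor, in rat vascular smooth muscle cells to promote proliferation, and in human erythroid precursors to fall during maturation.

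The mature sequences are printed 5′ to 3′ from RefSeq (GRCm38.p6), with the seed in capitals, because they show what the pair shares and where it parts.
mmu-miR-221-3p: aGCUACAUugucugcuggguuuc
mmu-miR-222-3p: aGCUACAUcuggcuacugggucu
mmu-miR-1928: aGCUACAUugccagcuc
mmu-miR-221-5p: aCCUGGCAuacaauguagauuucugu
The 3p strands of Mir221 and Mir222 are both 23 bases long. Compared position by position from the 5′ end without gaps, their first 8 bases are identical, and 11 of 23 positions in all. Both strands also carry CUGGGU nearer the 3′ end, but at shifted positions that a count without gaps does not align. The count therefore understates how alike the strands are. Among the mature mouse sequences in that table, the seed GCUACAU occurs in 3, and the remaining one is mmu-miR-1928 from chromosome 1. By the same count without gaps, mmu-miR-1928 matches miR-221-3p at 14 of 17 positions and miR-222-3p at 8 of 17. Mir1928 had 0 reads in both libraries. Counting error alone (a floor of 3 reads) allows up to 0.573 CPM in replicate 1 or 0.991 CPM in replicate 2. CPM here is own-strand reads per 1000000 reads counted on microRNA genes. All counted reads of genes with this seed thus came from the 2 X-linked hairpins. The seed of miR-221-5p, the strand from the other side of the Mir221 hairpin, occurs in 1 mature sequence.

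The hairpins are shown with their annotated mature strands in capitals, since the deposited counts refer to the whole hairpin gene.
Mir221: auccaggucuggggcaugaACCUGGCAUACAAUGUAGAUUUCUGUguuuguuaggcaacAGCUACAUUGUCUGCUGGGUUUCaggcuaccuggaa
Mir222: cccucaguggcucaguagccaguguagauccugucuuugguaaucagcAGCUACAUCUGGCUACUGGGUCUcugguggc
Mir221 (ENSMUSG00000065422.1) lies at chrX:19146294-19146388 and Mir222 (ENSMUSG00000065471.1) at chrX:19146893-19146971, both on the minus strand of mm10. They are 504 bases apart, and Mir222 lies upstream in the direction of transcription. Neither overlaps another annotated gene, so neither is exonic or intronic in this annotation. The nearest other gene is Gm14636, a noncoding processed transcript on the same strand (chrX:19156981-19167241), 10009 bases upstream of Mir222. The hairpins are 95 and 79 bases long with a GC content of 47.4% in Mir221 and 54.4% in Mir222. Their predicted folds have a minimum free energy of -42.8 kcal/mol with 38 base pairs for Mir221 and -40.7 kcal/mol with 28 base pairs for Mir222.

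**Figure D1:**
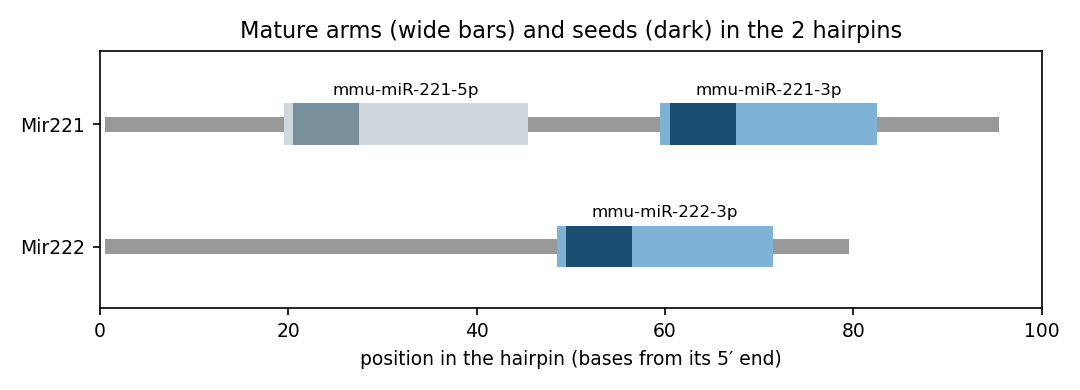
The horizontal axis gives the position in each hairpin in bases from its 5′ end, for Mir221 (95 bases) above and Mir222 (79 bases) below. Wide bars are the RefSeq mature strands and dark bars their seeds; miR-221-3p spans bases 60 to 82 and miR-222-3p bases 49 to 71, both toward the 3′ end.

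Reads that map to several places were counted for no gene, which matters for genes with close copies. Against the other 2201 annotated hairpins on both strands, the longest exact stretch was 13 bases for Mir221 (shared with Mir7213 and Mir7672) and 12 bases for Mir222. Neither shares 20 bases with any of them. Copies outside annotated hairpins were not looked for. Neither gene had a read in the column taken as the opposite strand in either library. For Mir1928 and the other genes named below, shared stretches were not looked for, so reads that fit a copy may be missing from their counts.

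Replicate 1 held 12701590 reads, of which 5237062 (41.2%) were counted on microRNA genes, and replicate 2 held 7126319 with 3026501 (42.5%) counted. Reads mapping to several places made up 41.1% in replicate 1 and 39.9% in replicate 2. Marker microRNAs of the heart's cell types were present. The endothelial list (1 of 2 genes detected, meaning 10 reads or more in each library) reached 42912 CPM in sum in replicate 1, against 63991 CPM in replicate 2. The smooth muscle list (2 of 3 detected, Mir145b at 0) had 30333 and 33879 CPM in the same order of libraries, the cardiomyocyte list (5 of 7) 5192 and 3454 CPM, and the leukocyte list (5 of 5) 3855 and 4154 CPM. In the cardiomyocyte list, Mir1a-2 had 110 reads in replicate 1 and 101 in replicate 2, and Mir133a-1 had 16 and 12. Reads that fit several Mir1a genes, or several Mir133a genes, were counted for none. The sums therefore do not rank the cell types. The erythroid list (3 of 3) had 995 CPM in replicate 1, against 7382 CPM in replicate 2, a 7.42-fold difference. It was made by Mir451a (234 CPM in replicate 1, 6393 CPM in replicate 2) and Mir144, whereas Mir486 had 658 CPM in replicate 1 and 410 CPM in replicate 2.

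Mir221 was a moderately abundant microRNA of the young heart, whereas Mir222, the neighbour with the same seed, was scarce. Mir221 had 8062 reads in replicate 1 and 5267 in replicate 2, or 1539 CPM (exact 95% Clopper-Pearson interval 1506 to 1573) and 1740 CPM (1694 to 1788). Its mean was 1640 ± 142 CPM (SD, n = 2), or 0.154% of counted reads in replicate 1 and 0.174% in replicate 2. Both libraries placed it at a similar position, rank 54 in replicate 1 and rank 49 in replicate 2. By its mean it lay above 83.9% of the 335 detected genes. Such tissue libraries do not tell fewer cells of a type from less RNA per cell, and they do not show whether the reads came from vessels or other cells.

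Mir222 had 358 reads in replicate 1 and 134 in replicate 2. These are 68.4 CPM (interval 61.5 to 75.8) and 44.3 CPM (37.1 to 52.4), with a mean of 56.3 ± 17.0 CPM (SD, n = 2). It stood at rank 177 in replicate 1 and 186 in replicate 2, above 46.0% of detected genes by its mean. The SD of Mir222 was a larger part of its mean than that of Mir221. All intervals and floors cover counting error only, because no molecular identifiers mark which reads stem from 1 molecule.

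The hairpins of the pair, with the shared seed, had 1608 CPM together in replicate 1, against 1785 CPM in replicate 2, and nearly all of these reads were from Mir221. Mir222 gave 4.25% of the reads of the pair in replicate 1 (3.83 to 4.70) and 2.48% in replicate 2 (2.08 to 2.93). Mir221 thus had 22.5-fold more reads than Mir222 in replicate 1 and 39.2-fold more in replicate 2. The mean log2 ratio of Mir222 to Mir221 was -4.89 ± 0.57 (SD, n = 2). A count covers the whole hairpin, so miR-221-3p and miR-221-5p cannot be told apart. Nor does the count of Mir222 show which part of its hairpin the reads came from. A ratio of reads between different sequences is also not a ratio of molecules.

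**Figure D2:**
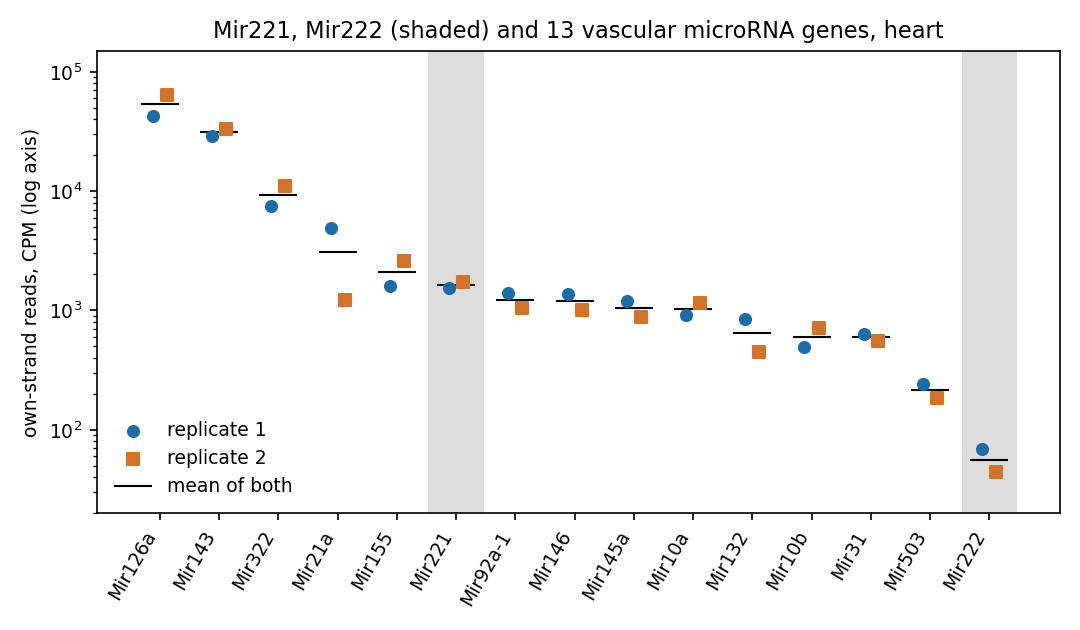
Points give the level in CPM on a log axis in replicate 1 (circles) and replicate 2 (squares), and lines the mean of both, for Mir221 and Mir222 (shaded) and 13 detected genes of the vascular list. Mir221 lies sixth of the 15 genes shown by its mean, and Mir222 lies last in both libraries.

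In the order of mean levels, Mir221 did not separate from its neighbours. Mir676 (1728 ± 339 CPM) and Mir181d (1685 ± 524 CPM) stood next above it, and Mir379 (1617 ± 159 CPM) and Mir423 (1549 ± 652 CPM) next below (SD, n = 2 each). The ranges of the replicates of all 4 overlapped that of Mir221. Around Mir222, the genes next above were Mir29c (59.6 ± 5.43 CPM) and Mir196b (56.9 ± 3.71 CPM), and those next below were Mir467c (54.9 ± 13.4 CPM) and Mir92-2 (54.5 ± 19.6 CPM). Their ranges all overlapped that of Mir222.

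The genes with the most similar pair of levels were found by the Euclidean distance of log2(CPM + 1) over the 2 libraries. For Mir221 they were Mir379 (distance 0.034), Mir1839 (0.20) and Mir411 (0.21). Mir379 and Mir411 belong to an imprinted microRNA cluster on chromosome 12. For Mir222 they were Mir92-2 (0.12), Mir381 (0.17) and Mir345 (0.17). Mir92-2 is itself on chromosome X and had the same 358 reads as Mir222 in replicate 1 and 123 reads in replicate 2, against 134 for Mir222. Reads of Mir92-2 that also fit Mir92-1 were not counted. With 2 libraries, likeness says little beyond a similar level.

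The libraries differed in opposite directions for the 2 genes. Mir221 was lower in replicate 1 by 1.24-fold (log2 difference -0.31, 95% counting interval -0.36 to -0.26), and Mir222 was higher in replicate 1 by 1.40-fold (log2 difference 0.49, 0.20 to 0.79). These differences were scaled by trimmed mean of M-values (TMM) and are given as replicate 1 over replicate 2. An exact two-sided binomial test with Benjamini-Hochberg adjustment over 430 genes with 10 or more reads in sum gave an adjusted p of 9.06e-33 for Mir221 and 0.00161 for Mir222. The test called 55.3% of all genes tested, 27.4% lower and 27.9% higher in replicate 1, so a call in either direction was common. It compares these libraries by counting error alone and says nothing of a condition.

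Neither call held at a fixed spread between replicates. With a coefficient of biological variation between replicates of 0.1, edgeR's exact test gave other values. The adjusted p was 0.267 for Mir221 and 0.135 for Mir222, and 28.6% of genes were called. At a coefficient of 0.424 the adjusted p was 1 for both genes, but this value was estimated from the same 2 libraries, so little could pass and the test has no weight of its own. It called 4 of 430 genes (0.930%), with 24 (5.58%) at an unadjusted p under 0.05. Among 226 genes with a mean of 100 reads or more, 137 differed between the libraries by more than Mir221 and 95 by more than Mir222, where the median difference was 1.32-fold.

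**Figure D3:**
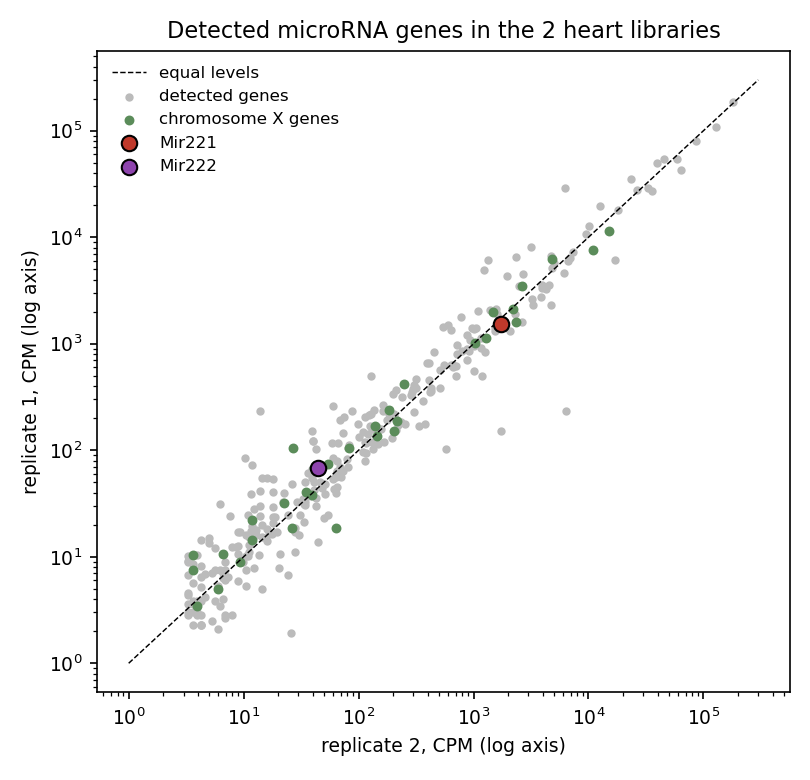
Each point is 1 of the 335 detected genes, with its CPM in replicate 2 on the horizontal and in replicate 1 on the vertical log axis; green points are genes of chromosome X, and the dashed line marks equal levels. Mir221 (1539 CPM in replicate 1, 1740 CPM in replicate 2) lies just under the line and Mir222 (68.4 and 44.3 CPM) just above it, both within the cloud of other genes.

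The scaling changed the size of these differences but not their direction. Relative to total counts, TMM moved every log2 difference by -0.13. Without it, that is with total counts, the log2 difference was -0.18 (-0.23 to -0.13) for Mir221 and 0.62 (0.34 to 0.92) for Mir222. With DESeq2 size factors it was -0.27 (-0.32 to -0.22) for Mir221 and 0.53 (0.24 to 0.83) for Mir222. In summed CPM, without TMM, the endothelial list, in effect Mir126a alone, was 1.49-fold lower in replicate 1, in the direction of Mir221. The erythroid list (7.42-fold), the smooth muscle list (1.12-fold) and the leukocyte list (1.08-fold) were lower too. Within the smooth muscle and leukocyte lists, however, Mir145a, Mir142, Mir223, Mir150 and Mir146 were called higher. Log2 differences of single genes in this comparison are scaled by TMM. The erythroid Mir486 ran the other way (log2 difference 0.55). Mir486 overlaps Mir3107 on the opposite strand, so reads that fit both places may be missing from its count. The cardiomyocyte list was higher in its sum (5192 CPM in replicate 1 and 3454 CPM in replicate 2), although its member Mir1a-2 was called lower (log2 difference -0.80). Their part in the differences of the pair was not tested.

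**Figure D4:**
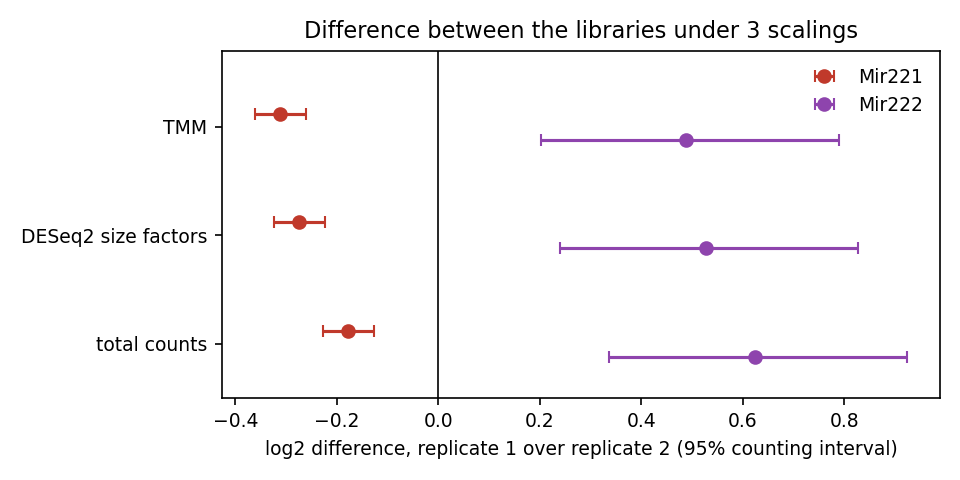
The horizontal axis shows the log2 difference of replicate 1 over replicate 2 with its 95% counting interval, for Mir221 (red) and Mir222 (purple) under 3 scalings of the libraries. Mir221 lies below 0 (-0.31 to -0.18) and Mir222 above 0 (0.49 to 0.62) under each.

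The ratio within a library needs no scaling, and it differed between the libraries beyond counting error. The log2 ratio of Mir222 to Mir221 was -4.49 in replicate 1 and -5.29 in replicate 2, a difference of 0.80 (0.51 to 1.11) or 1.74-fold. A two-sided Fisher's exact test on the 4 read counts gave p = 2.44e-08. To place this, the same ratio of the upstream to the downstream gene was taken for all 85 neighbouring pairs on 1 strand with a gap of 10 kb or less and both genes detected. The median size of the difference between libraries over these pairs was 0.69, and 33 pairs differed by more than Mir222 and Mir221. In 44 of the 85 pairs both genes were called between libraries, and in 24 of these 44 the directions were opposite, the present pair included. Shifts of this size within neighbouring pairs were common in these libraries.

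The imbalance within the pair was larger than in most neighbouring pairs. The mean log2 ratio was -4.89 for Mir222 over Mir221, against a median size of 2.79 over the 85 pairs in either direction, and 17 pairs were more unequal. Over 48 pairs with a mean of 100 reads or more in each gene, the median was 2.95 and 9 pairs were more unequal. Pairs of 1 cluster share genes, so these counts are a description without a test. The upstream gene was the lower one in 35 of the 85 pairs, as Mir222 was here.

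**Figure D5:**
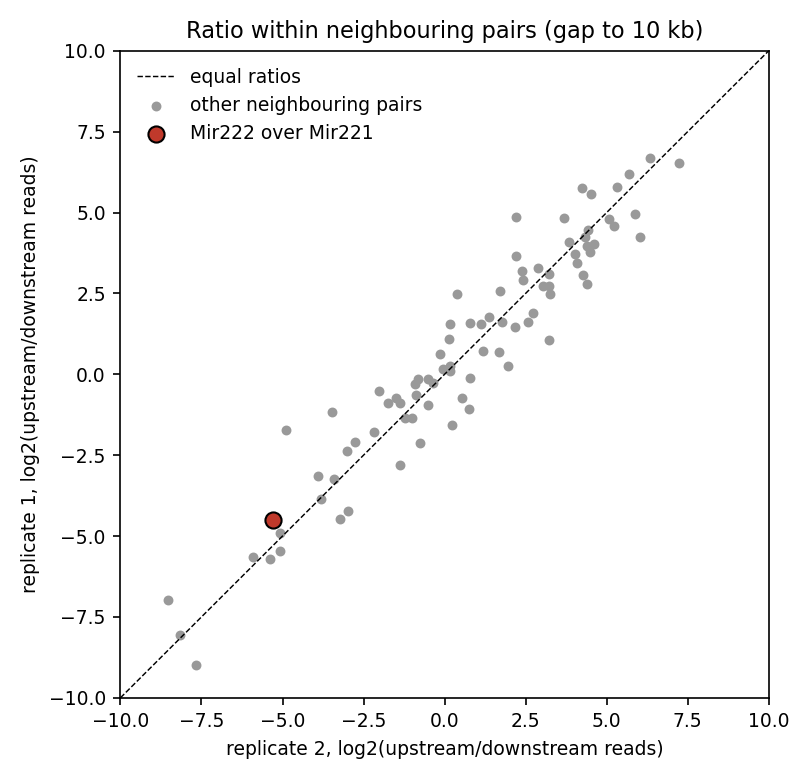
Each point is 1 of 85 neighbouring pairs, with log2 of upstream over downstream reads in replicate 2 on the horizontal and in replicate 1 on the vertical axis; the dashed line marks equal ratios. Mir222 over Mir221 (red) lies at -4.49 in replicate 1 and -5.29 in replicate 2, toward the unequal end of the cloud and slightly off the line.

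Beside other microRNAs known from blood vessels, Mir221 took a middle place and Mir222 the lowest among those detected. Of a list of 15 such genes, 13 were detected, from 213 to 53451 CPM by mean. By mean, 5 of these stood above Mir221, 8 below it and 0 below Mir222. In replicate 2, however, Mir21a (1225 CPM) was below Mir221 (1740 CPM). The range of Mir155 over the replicates (1591 to 2619 CPM) overlapped that of Mir221. The highest were the endothelial Mir126a (53451 ± 14906 CPM) and the smooth muscle Mir143 (31063 ± 2742 CPM). Mir322, of an X-linked cluster that restrains the cell cycle, had 9264 ± 2466 CPM, and its cluster partner Mir503 had 213 ± 39.1 CPM. Mir21a, raised in many fibrotic tissues, had 3075 ± 2617 CPM and Mir155, known from immune cells and activated endothelium, 2105 ± 727 CPM (SD, n = 2 each).

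The nearest vascular genes below Mir221 were Mir92a-1 of the Mir17 cluster (1231 ± 251 CPM), Mir146, which damps inflammatory signalling (1189 ± 250 CPM), and Mir145a, the partner of Mir143 (1043 ± 235 CPM). Reads that fit Mir92a-1 and Mir92-2 alike were counted for neither, so the level of Mir92a-1 and its place below Mir221 may be too low. Mir10a and Mir10b, from the Hox clusters, had 1035 ± 167 and 602 ± 151 CPM. Mir132, linked to vessel growth, had 648 ± 278 CPM and Mir31 596 ± 53.4 CPM. Mir126b had 3 reads in replicate 1 and 0 in replicate 2, and Mir145b had 0 in both.

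Between libraries, the binomial test called 6 of the 13 vascular genes higher and 6 lower in replicate 1, and 1 was not called. Over all genes tested, 27.9% were called higher and 27.4% lower, but a call depends on depth. Of 263 genes with 100 or more reads in sum, 204 were called, 102 in each direction. The least read of the 13, Mir503, had 1262 reads in replicate 1 and 562 in replicate 2. Mir126a (log2 difference -0.71) and Mir143 (-0.31) were lower, as Mir221 was, and Mir145a (0.33) and Mir503 (0.24) were higher, as Mir222 was. Mir143 differed between the libraries by the same 1.24-fold as Mir221. Mir21a showed the widest difference of the list, 3.66-fold higher in replicate 1 (log2 1.87), and Mir31 the smallest (log2 0.05, adjusted p = 0.365 by the exact binomial test). The median log2 difference of the list was 0.05, against -0.05 over all 430 genes tested.

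On chromosome X, 34 of 142 microRNA genes were detected, and Mir221 ranked eighth and Mir222 in place 20 by mean level. The X-linked genes took 4.02% of counted reads in replicate 1 and 4.52% in replicate 2. The 5 highest were Mir652 (13316 ± 2495 CPM), Mir322, Mirlet7f-2 (5540 ± 1045 CPM), Mir351 (3048 ± 579 CPM) and Mir98 (2170 ± 41.0 CPM). Of 40 X-linked genes tested between libraries, 12 were higher in replicate 1, 12 were lower and 16 were not called, where the test called 55.3% of all genes. Their median log2 difference was -0.04, against -0.05 over all genes tested. The counts do not separate the parental alleles of the hybrid.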

How the data were processed

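The files used hold whole-number read counts per microRNA gene, deposited by the authors without normalization. Per the readme deposited beside each table, reads were counted against mm10 and GENCODE M21. For adapter trimming, alignment and counting, the tools are not given in the sources read. The 3 count columns have no header. From their values (equal totals, reads ambiguous between genes in the first alone) they were taken as unstranded, own strand and opposite strand. Reads on the own strand were used, and the 4 summary lines, which name no gene, were left out of library sizes and tests. They held 58.8% of reads in replicate 1 and 57.5% in replicate 2. Levels are CPM over all gene rows, with SD over 2 libraries. The test between libraries is an exact two-sided binomial test on TMM sizes (edgeR 4.0.16, R 4.3.3) with Benjamini-Hochberg adjustment and a threshold of 0.05. It was tried on simulated data that held counting error alone. Those data had no spread between replicates, so they do not show how the test behaves under such a spread. For log2 differences and for ratios of Mir222 to Mir221 or within pairs, 0.5 reads were added per count. Folds were predicted with ViennaRNA 2.7.2, and other work used Python 3.11.15 with scipy 1.17.1. Named were the pair, a vascular list, the 3 nearest genes, the 2 next genes above and below in level, the 5 highest genes of chromosome X and every microRNA sharing the seed. The vascular gene Mir92a-1 was matched to its M21 name, Mir92-1, through RefSeq. Members and lists were chosen with earlier results of these data known.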

Additional observations from a re-analysis of the deposited data

How the results depend on the processing

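The direction of the difference between libraries held for Mir221 and Mir222 under the 8 alternatives run: total counts, DESeq2 1.42.0 size factors, no filter, 100 or more reads in sum, 10 reads added, unstranded counts and both edgeR tests. The difference of their ratio was 0.80 with unstranded counts and 0.74 with 10 reads added, the alternatives run for it. Under the binomial alternatives, the adjusted p ranged from 5.54e-33 to 2.13e-11 for Mir221 and from 3.49e-05 to 0.00270 for Mir222. The calls were lost with edgeR's exact test, at both coefficients of variation, with a log2 difference of -0.31 for Mir221 and 0.49 for Mir222. That test called 123 genes at 0.1 and 4 at the coefficient estimated from the same libraries, against 238 by the binomial test. The level of Mir221 depends on the denominator: it was 2246 CPM over unstranded counts, 687 over all reads of the library and 2009.6 without the most abundant gene. That of Mir222 was 76.8 CPM over unstranded counts and 23.5 over all reads. Leaving out each replicate gave 1539 to 1740 CPM for Mir221, 44.3 to 68.4 CPM for Mir222 and -5.29 to -4.49 for the log2 ratio. With 134 reads of Mir222 in replicate 2, its counting interval spans 37.1 to 52.4 CPM, which limits how well the ratio is known. No paired analysis was possible because there is 1 group.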
